A study of Mus musculus with 4 samples.

Results

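The genes described here were double-stranded RNA sensors and the proteins that act beside them: Ifih1, Ddx58, D11Lgp2e, Tlr3, Adar, Zc3hav1, Eif2ak2 and Myd88. They were taken as the probes of the value table whose gene symbol was one of these 8 names. Each had 1 probe, so 8 of the 16446 named genes were covered, and all 8 were above the detection limit on all 4 arrays. D11Lgp2e is an older symbol of Dhx58 (Lgp2), Ddx58 is known as Rig-I and Ifih1 as Mda5.

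RNA came from tumor organoids grown from polyps of ApcMin mice (Apc Min/+), which carry 1 mutant Apc allele. Loss of Apc in their tumors keeps Wnt signaling on. All cultures grew in Matrigel in serum-free medium with EGF and noggin. One culture received 1 μM 5-Aza-CdR for the first 24 hours, with RNA taken at day 4, and its reference was an untreated control culture. Another carried a lentiviral shRNA against Dnmt1, with RNA taken at day 9 after infection, and its reference carried the empty shRNA vector (control shRNA). Both lentiviral cultures were infected and puromycin-selected alike, and the labels do not say how many mice gave the organoids. Each of the 4 cultures was measured on 1 single-color Toray array, so no difference has a replicate error or a p-value. Of 11 epithelial markers with a probe, 9 lay above the array median in each culture, with Epcam at 2684 to 7627 units. They were not the same 9. Lgr5 was among them with 5-Aza-CdR (203) and in the untreated control (292), but not with Dnmt1 knockdown (18.55) or control shRNA (15.2). Krt20, listed as 9030623C06Rik, was among them only with Dnmt1 knockdown (27.4) and control shRNA (92.1). It was called lower with Dnmt1 knockdown, at a log2 ratio of -1.22. Of 22 immune markers with a probe, 3 lay above the median in each culture (Csf1r, Cd14 and Cd68), and Cd3g, Itgam and Nkg7 had no value on any array. Summed, the immune markers reached 647 with 5-Aza-CdR and 507 in the untreated control, and 426 with Dnmt1 knockdown and 436 in the control shRNA organoids. Of the 3 brightest, Cd14 had 318 with 5-Aza-CdR and 169 in the untreated control. Cd68 had 178 with 5-Aza-CdR and 194 in the untreated control, and Csf1r had 51.6 and 51.9. In the lentiviral pair the near-equal sums held shifts in both directions. Cd14 had 190 with Dnmt1 knockdown and 276 in the control shRNA organoids, Cd68 had 105 and 67.5, and Csf1r had 38.3 and 31.9. Mesenchymal markers summed to 717 with 5-Aza-CdR and 2632 in the untreated control, and to 72.0 with Dnmt1 knockdown and 87.8 in the control shRNA organoids. In the first pair most of the sum was Vim, at 560 with 5-Aza-CdR and 2544 in the untreated control. Vim was called lower there, at a log2 ratio of -2.08. Acta2 had 83.7 with 5-Aza-CdR and 12.1 in the untreated control and was called higher, at 1.11. With Dnmt1 knockdown Vim had 10.3, against 39.7 in the control shRNA organoids, and was not called, at -0.88. The sums of endothelial markers were between 19.6 and 44.6. The part of such cells in the results was not tested. In a bulk culture, fewer cells of a type and less RNA per cell cannot be told apart. Dnmt1 itself had an intensity of 71.7 in the knockdown and 126 in the control shRNA organoids, and of 368 with 5-Aza-CdR against 239 without. Its log2 ratios were -0.69 with Dnmt1 knockdown and 0.39 with 5-Aza-CdR, neither as large as 2-fold.

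Long or uncapped double-stranded RNA is rare in healthy cells and marks infection by a virus. Ifih1 and Ddx58 are cytosolic helicases that bind it and signal through Mavs on mitochondria to induce interferon, while Tlr3 reads it inside endosomes. Several of these sensors are themselves interferon-stimulated genes, so their mRNA can mark an ongoing interferon response as well as the capacity to start one. In intestinal epithelium the same pathways guard against enteric viruses. The 2 comparisons ask how inhibition of DNA methylation, by drug or by knockdown of the maintenance methyltransferase Dnmt1, alters expression in these tumor organoids. Methylation itself was not measured on these arrays.

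Interferon acts on promoters through a short element, the ISRE, whose core is a pair of GAAA blocks. The promoters of the 8 genes were searched for 2 copies of GAAA with any 2 bases between them, on either strand. The windows ran from 250 bases before to 50 after each transcription start in RefSeq (GRCm38.p6), and 7 of the 8 genes had one. A match lay in the windows of 4 of these 7, against 3.99% of all 27025 genes and 3.44% of all 32851 windows. The stretches below are shown because they carry these matches. They are 30 bases each, 5′ to 3′ on the strand of the gene, with the match in capitals.
Ifih1, chr2:62646206-62646235, minus strand: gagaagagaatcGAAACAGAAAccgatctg
Ddx58, chr4:40239804-40239833, minus strand: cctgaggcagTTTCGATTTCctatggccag
Eif2ak2, chr17:78882535-78882564, minus strand: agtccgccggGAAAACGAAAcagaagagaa
Myd88, chr9:119340039-119340068, minus strand: gagcttctcgGAAAGCGAAAgaaggagggg

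With the first transcribed base counted as 1, the matches began at base 33 in Ifih1, 3 in Ddx58 and 19 in Eif2ak2, downstream of the start, and 40 bases upstream of it in Myd88. The Ddx58 match reads on the opposite strand. The windows of Tlr3, Zc3hav1 and all 3 starts of Adar held no such letters. CpG pairs numbered 10 to 20 in the windows of Ifih1, Ddx58, Tlr3, Zc3hav1, Eif2ak2 and Myd88, and 6, 34 and 12 in the 3 windows of Adar, with a median of 7 over all windows. The GAAA matches are matches of letters and do not show that a factor binds there.

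Values are given as deposited intensities, which were linear in the spot signal, with the blank signal subtracted and each array's median at 25. The log2 ratios were computed from the spot signals after normexp correction with an offset of 50 and quantile normalization. In both comparisons of a treated culture with its control, the fold that the log2 ratio stands for is smaller for these genes than the fold in deposited intensities beside it, in part because the offset draws ratios of dim spots toward 0. Calls of higher or lower needed a log2 ratio of 2-fold or more and detection on the brighter array.

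Ifih1, which binds long double-stranded RNA, had the highest log2 ratio of the 8 in each comparison. With 5-Aza-CdR that rank depended on the processing, since Adar was first in the deposited values and after plain blank subtraction (2.43 against 2.34 for Ifih1), and Myd88 under local background subtraction (0.94 against 0.65) and, narrowly, under median and 75th percentile scaling. Its intensity was 110 with 5-Aza-CdR and 18.2 in the untreated control, and 148 with Dnmt1 knockdown and 31.6 in the control shRNA organoids. Both treated cultures thus lay above both controls, by 6.07-fold and 4.67-fold over their own. Log2 ratios were 1.21 with 5-Aza-CdR, at percentile 99.4 of all named genes detected, and 1.48 with Dnmt1 knockdown, at percentile 99.9. Ifih1 lies on chromosome 2 (62595618 to 62646255, GRCm38.p6).

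Ddx58, which recognizes RNA ends with a 5′ triphosphate, had a larger log2 ratio with Dnmt1 knockdown than with 5-Aza-CdR. Its intensity was 328 with 5-Aza-CdR and 188 in the untreated control, and 179 with Dnmt1 knockdown and 70.2 in the control shRNA organoids. The deposited level with Dnmt1 knockdown was below that of the untreated control, but after normalization it was above it, at 8.49 against 8.22 (log2). The deposited folds were 1.74 and 2.55, and the log2 ratios were 0.54 with 5-Aza-CdR and 0.99 in the knockdown. The second value lay just below the 2-fold limit. Ddx58 lies on chromosome 4 (40203777 to 40239825).

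D11Lgp2e, the third RIG-I-like receptor, lacks the signaling domains of the other 2 and modulates them. Its intensity was 90.2 with 5-Aza-CdR and 18.01 in the untreated control, and 46.5 with Dnmt1 knockdown and 14.9 in the control shRNA organoids. The 2 controls were close to each other here, and both treated cultures lay above them. The log2 ratios were 1.03 with 5-Aza-CdR and 0.72 in the knockdown, for deposited folds of 5.01 and 3.12. The gene is on chromosome 11 (100694884 to 100704271).

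Tlr3, the endosomal sensor, had the smallest log2 ratio of the 8 in the knockdown. Its intensity was 21.6 with 5-Aza-CdR and 10.7 in the untreated control, and 25.7 with Dnmt1 knockdown and 22.3 in the control shRNA organoids. The untreated control was lowest, and in the normalized log2 values 5-Aza-CdR, at 6.29, lay between it (6.07) and the control shRNA organoids (6.53). After 5-Aza-CdR its log2 ratio was 0.22, for a deposited fold of 2.02, and in the knockdown it was 0.01, for a deposited fold of 1.15. The gene is on chromosome 8 (45395665 to 45411075).

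Adar, which edits adenosine to inosine in double-stranded RNA and so keeps a cell's own RNA from being sensed, followed D11Lgp2e closely. Its intensity was 77.8 with 5-Aza-CdR and 12.1 in the untreated control, and 51.5 with Dnmt1 knockdown and 16.4 in the control shRNA organoids. The deposited fold of 6.45 with 5-Aza-CdR was the largest of the 8 genes in that comparison, and that with Dnmt1 knockdown was 3.14. As log2 ratios these were 1.05 and 0.76 after normalization. Over the 4 arrays, the centered log2 values of D11Lgp2e and Adar were 0.22 apart (Euclidean distance), the closest of the 28 pairs among the 8 genes. The gene is on chromosome 3 (89714469 to 89753455).

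Zc3hav1 (Zap, also counted with the poly-ADP-ribose polymerases as Parp13) binds viral RNA and directs its decay. Its intensity was 121 with 5-Aza-CdR and 50 in the untreated control, and 86.0 with Dnmt1 knockdown and 32.7 in the control shRNA organoids. The treated cultures were again above both controls. The deposited folds were close, 2.42 with 5-Aza-CdR and 2.63 in the knockdown, and the log2 ratios of 0.67 and 0.85 both stayed under the 2-fold limit. The gene is on chromosome 6 (38305286 to 38355352).

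Eif2ak2 (Pkr), a kinase that stops translation when it binds double-stranded RNA, was brightest in the knockdown. Its intensity was 13.9 with 5-Aza-CdR and 10.01 in the untreated control, and 33.1 with Dnmt1 knockdown and 14.7 in the control shRNA organoids. Only the knockdown culture stood apart, with a deposited fold of 2.25 against 1.39 with 5-Aza-CdR. On the log2 scale the ratios were 0.07 with 5-Aza-CdR, the smallest of the 8 genes in that comparison, and 0.43 with Dnmt1 knockdown. The gene is on chromosome 17 (78850504 to 78882572).

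Myd88 is the adaptor of the interleukin 1 receptor and of most Toll-like receptors, but not of Tlr3, which signals through Ticam1. Its intensity was 244 with 5-Aza-CdR and 76.9 in the untreated control, and 327 with Dnmt1 knockdown and 181 in the control shRNA organoids. The control shRNA culture was itself 2.35-fold above the untreated control, so the knockdown was set against a higher level. In the normalized log2 values the control shRNA organoids, at 8.57, also lay above 5-Aza-CdR, at 8.38. The log2 ratios were 1.12 with 5-Aza-CdR and 0.68 in the knockdown, and the deposited folds were 3.18 and 1.81. The gene is on chromosome 9 (119335934 to 119340018).

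**Figure D1:**
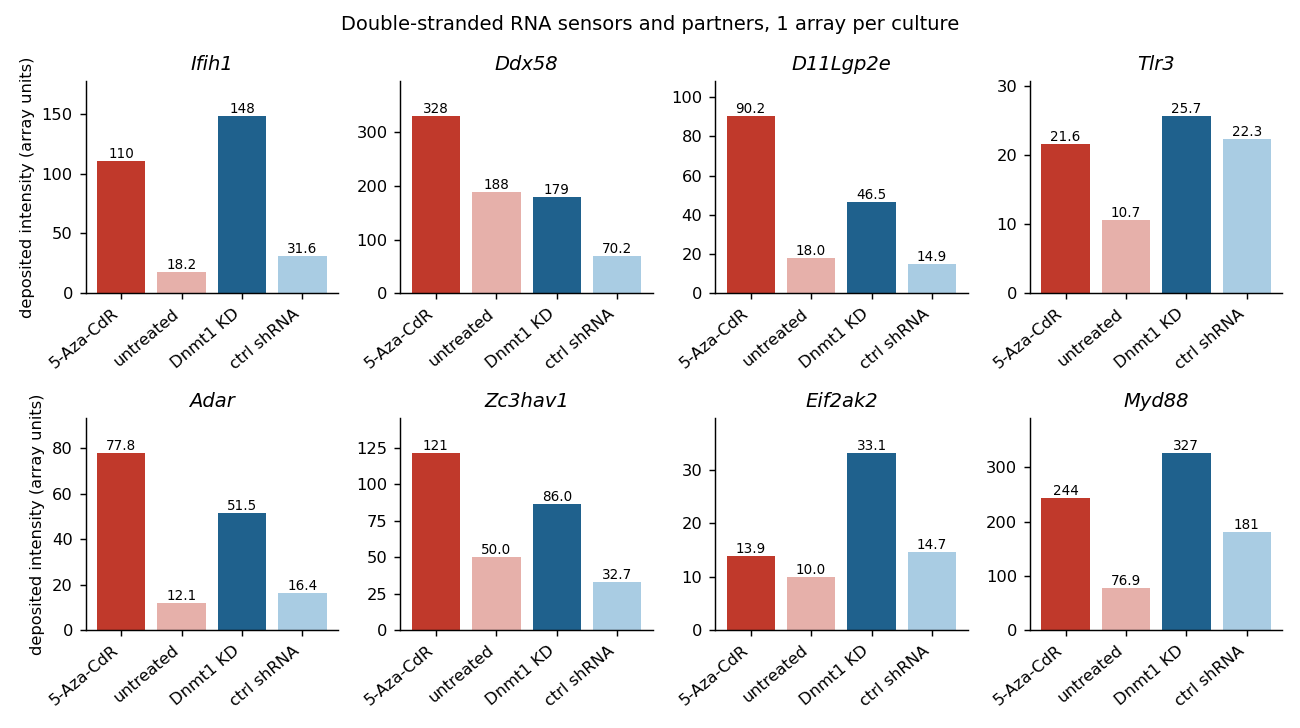
Deposited intensity (array units, linear axis from 0) of each of the 8 genes in the 5-Aza-CdR, untreated control, Dnmt1 knockdown and control shRNA cultures, 1 bar for 1 array, with no error bars because no culture had a second array. The treated bar is above its own control in every panel, by 1.15-fold (Tlr3, Dnmt1 knockdown) to 6.45-fold (Adar, 5-Aza-CdR).

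After 5-Aza-CdR, 4 of the 8 genes were called higher than in the untreated control (Ifih1, D11Lgp2e, Adar and Myd88), against 0.934% of all 15640 genes tested. With Dnmt1 knockdown 1 of the 8 was called, Ifih1, against 0.327% of 14392 genes. Ifih1 was also the 1 gene called in both comparisons, against 0.189% of 14316 genes tested in both. None of the 8 was called lower, where the shares of all genes were 0.652% with 5-Aza-CdR and 0.139% with Dnmt1 knockdown. No log2 ratio of the 8 was below 0 in either comparison. The median of the 8 was 0.85 with 5-Aza-CdR and 0.74 in the knockdown, while that of all genes tested was -0.0055 and -0.0048. The middle 95% of all genes ran from -0.58 to 0.60 with 5-Aza-CdR, and 5 of the 8 were above that range. With Dnmt1 knockdown it ran from -0.41 to 0.40, and 7 of the 8 were above it, all but Tlr3. These 8 genes were chosen with earlier results of these arrays known, so the shares describe them and test nothing.

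In the deposited intensities, the 2-fold limit was passed by 6 of the 8 genes with 5-Aza-CdR (all but Ddx58 and Eif2ak2), against 6.17% of all genes. It was passed by 6 with Dnmt1 knockdown (all but Tlr3 and Myd88), against 5.91%. The 4 genes that passed it in both were Ifih1, D11Lgp2e, Adar and Zc3hav1, against 1.1% of all genes. On this scale the median of all genes was itself above 0, at 0.17 (log2) with 5-Aza-CdR and at 0.19 with Dnmt1 knockdown, and the medians of the 8 were 1.47 and 1.37.

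**Figure D2:**
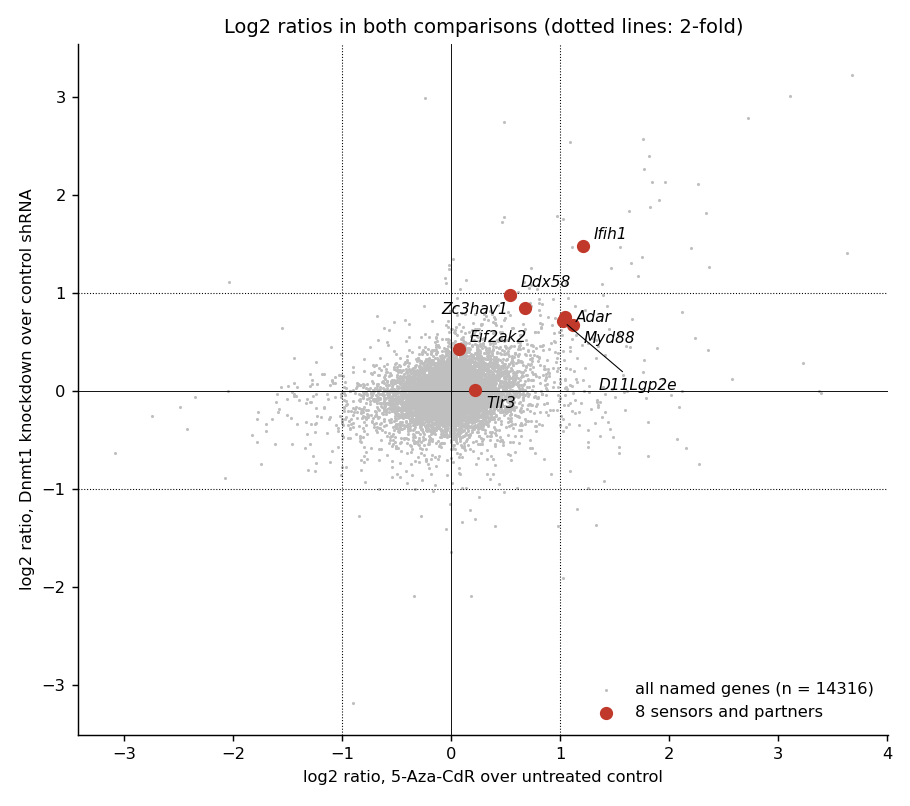
Log2 ratio with 5-Aza-CdR over the untreated control (x axis) and with Dnmt1 knockdown over the control shRNA (y axis), where gray points are the 14316 named genes tested in both comparisons, red points the 8 sensors and partners, and dotted lines mark 2-fold. All 8 lie right of and above 0, and Ifih1 lies beyond 2-fold on both axes. On the x axis Ddx58, Tlr3 and Eif2ak2 lie within the middle 95% of genes tested with 5-Aza-CdR (-0.58 to 0.60).

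The comparisons share no array, and they differ in agent, time and vector, so their sizes are set side by side without a test. Both scales gave D11Lgp2e, Tlr3, Adar and Myd88 the larger ratio with 5-Aza-CdR, and Ddx58, Zc3hav1 and Eif2ak2 the larger one with Dnmt1 knockdown. Among 8 ways of processing the arrays, that order was kept in each for D11Lgp2e, Adar, Myd88 and Eif2ak2. It turned for Ddx58 under median scaling (0.95 with 5-Aza-CdR and 0.89 in the knockdown), and for Zc3hav1 under median scaling (1.01 and 0.71), local background subtraction and normalization of each comparison alone. For Tlr3 it turned under 75th percentile scaling (-0.11 and 0.03) and local background subtraction. For Ifih1 the order depended on the processing. The knockdown had the larger log2 ratio (1.48 against 1.21 with 5-Aza-CdR), but 5-Aza-CdR had the larger deposited fold (6.07 against 4.67 with Dnmt1 knockdown). Its log2 ratio was also larger with 5-Aza-CdR after plain blank subtraction (2.34 against 2.15) and under median scaling (1.51 against 1.30). So it was with each comparison normalized alone (1.36 against 1.33). Probes of 1 gene, over 174 genes with several, differed by SDs of 0.20 (log2) for 5-Aza-CdR and 0.14 for Dnmt1 knockdown. These SDs hold differences between probes on the same arrays, technical or not and with no filter on detection, and no variation between cultures.

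The 2 controls were also set against each other, with 1 culture each and so no measure of their spread. Set over the untreated control, the control shRNA organoids gave the 8 genes a median log2 ratio of 0.24, with 6 above 0, against -0.0014 over all genes and a middle 95% of -1.22 to 1.22. Myd88 had the highest value, 1.31, at percentile 97.8 of all genes, and Ddx58 the lowest, -0.72, with a deposited fold of 0.373. The others were D11Lgp2e (0.03), Zc3hav1 (-0.10), Adar (0.24), Eif2ak2 (0.25), Tlr3 (0.46) and Ifih1 (0.50). Vector, time in culture and array run cannot be told apart between the controls.

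The other genes of these pathways were read from 7 lists with 107 genes, of which 98 had a named probe. By the same rule Irf7 was the 1 gene called higher in each comparison, of 96 detected for 5-Aza-CdR and 94 for Dnmt1 knockdown, and none was called lower. Irf7, the factor that amplifies interferon transcription downstream of Mavs, had an intensity of 226 with 5-Aza-CdR and 22.5 in the untreated control, and 199.8 with Dnmt1 knockdown and 27.7 in the control shRNA organoids. The median of all listed genes was 0.03 with 5-Aza-CdR and -0.02 in the knockdown. Over all genes the shares called higher were 0.934% and 0.327%. By deposited intensity, 6 of 96 passed 2-fold upward after 5-Aza-CdR, close to the 6.17% of all genes. For Dnmt1 knockdown 3 of 94 did so, a smaller share than the 5.91% of all genes, and 1, Il1r1, passed it downward.

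Among adaptors, kinases and factors below the sensors (20 genes), the medians were 0.04 with 5-Aza-CdR and 0.11 in the knockdown. The adaptors Mavs and Ticam1, named here for their role after their values had been seen, were not called. Mavs, listed on the array as D430028G21Rik, had an intensity of 119 with 5-Aza-CdR and 127 in the untreated control, and 91.8 with Dnmt1 knockdown and 67.1 in the control shRNA organoids. Ticam1 had 32.5 with 5-Aza-CdR and 33.4 in the untreated control, and 10.1 with Dnmt1 knockdown and 8.18 in the control shRNA organoids. Irf1, another interferon regulatory factor, had a log2 ratio of 0.44 in each comparison. Regulators of the RIG-I-like receptors (15 genes) had medians of 0.10 and 0.0039. Trim25, a ubiquitin ligase that activates Ddx58, had an intensity of 513 with 5-Aza-CdR and 242 in the untreated control, and 342 with Dnmt1 knockdown and 195 in the control shRNA organoids. Its log2 ratios were 0.82 and 0.66. Rnf135 (Riplet), a ligase with the same target, had 0.42 and 0.52. Neither ligase was called.

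The medians of the remaining lists lay on both sides of 0. The list of endosomal Toll-like receptors and their partners had -0.22 with 5-Aza-CdR (6 genes detected) and -0.08 with Dnmt1 knockdown (5 genes). These medians say little of the receptors themselves. Tlr7 and Tlr8 were not detected on any array, and Tlr9 had no named probe. Tlr13 had an intensity of 3.31 with 5-Aza-CdR and 0.77 in the untreated control, and no value in either lentiviral culture. The lowest gene of the list was the chaperone Tnrc5 (Cnpy3), at -0.55 with 5-Aza-CdR, and Hsp90b1, another folding factor of these receptors, had -0.36. Genes of the Myd88 pathway had 0.0061 (17 genes) and -0.03 (16 genes), with Tlr4, the receptor of lipopolysaccharide, at 0.31 with 5-Aza-CdR and -0.21 in the knockdown, and Peli1, a ubiquitin ligase of the pathway, at -0.16 and 0.21. Other double-stranded RNA-binding proteins (13 genes) had 0.02 and -0.02, with Dhx9, an RNA helicase, at 0.29 and -0.04, and Zfr at 0.22 and -0.24. Kinases of eIF2 and stress genes (10 genes) had 0.20 and -0.07, with Ddit3, a transcription factor of the stress response, at 0.64 and 0.57, and Ppp1r15b, a phosphatase subunit that reverses eIF2 phosphorylation, at 0.22 and 0.39. The Ddit3 intensity was 190 with 5-Aza-CdR and 91.2 in the untreated control, and 621 with Dnmt1 knockdown and 403 in the control shRNA organoids. RNA decay factors (15 genes) had 0.01 and -0.02, with 2810028N01Rik (Dis3), an exosome nuclease, at 0.37 and 0.03, and Abce1, a ribosome recycling factor, at 0.09 and -0.39.

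**Figure D3:**
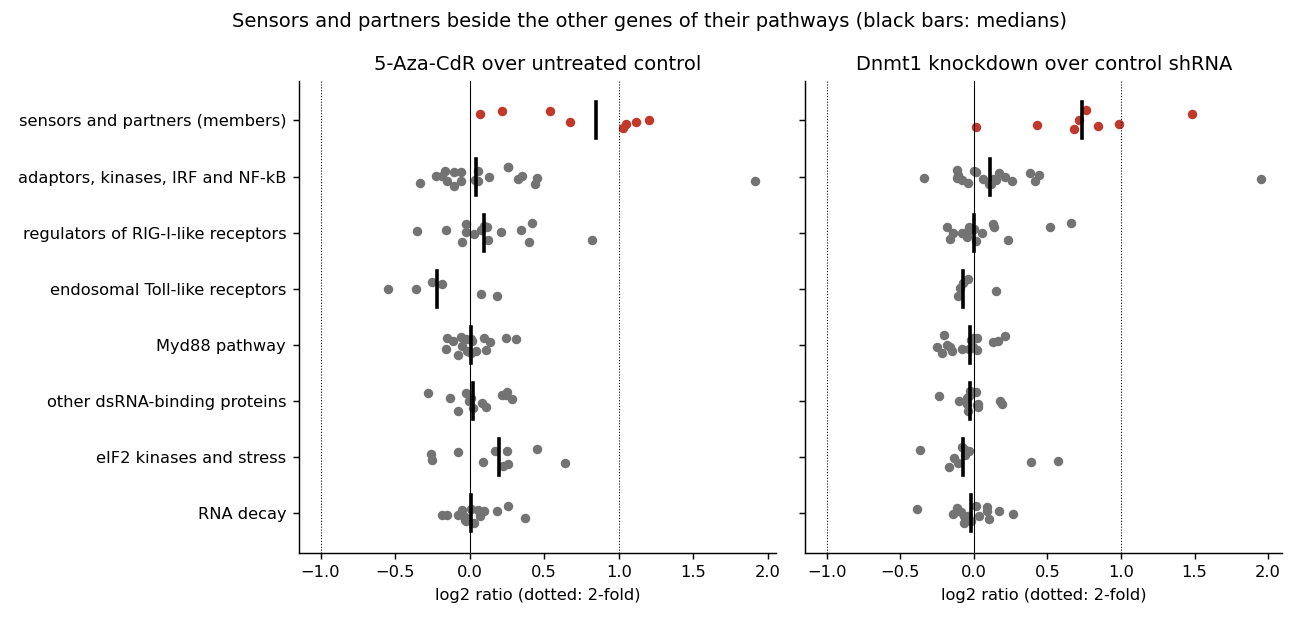
Log2 ratio (x axis, dotted lines at 2-fold) of each detected gene of the 8 sensors and partners (red) and of the 7 pathway lists (gray), with 5-Aza-CdR on the left and Dnmt1 knockdown on the right, where black bars are medians. The medians of the 8 are 0.85 and 0.74, those of the lists run from -0.22 to 0.20 and from -0.08 to 0.11, and the single gray point past 2-fold in each panel is Irf7.

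The 13449 other genes detected on all 4 arrays were ranked by the distance of their centered log2 values from those of Ifih1. The 5 closest were Ifi35 (distance 0.26), Oasl2 (0.28), Isgf3g (Irf9, 0.34), Parp9 (0.40) and Stat2 (0.50). Ifi35 had an intensity of 315 with 5-Aza-CdR and 107 in the untreated control, and 333 with Dnmt1 knockdown and 92.7 in the control shRNA organoids. Closest to the mean of the 8 genes were Slc25a22 (0.08), A030007D23Rik (Zfp750, 0.11), Mpa2 (0.11), Tor3a (0.13) and Gbp4 (0.15). Mpa2 and Gbp4 are separate names on the array that RefSeq gives to 1 gene. Since the offset draws ratios of dim spots toward 0, genes with unlike deposited folds can lie close on this scale. Slc25a22 had an intensity of 534 with 5-Aza-CdR and 282 in the untreated control, while Gbp4 had 38.2 and 4.67. With 4 values a gene, many genes come close by number alone, and likeness here is a description.

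**Figure D4:**
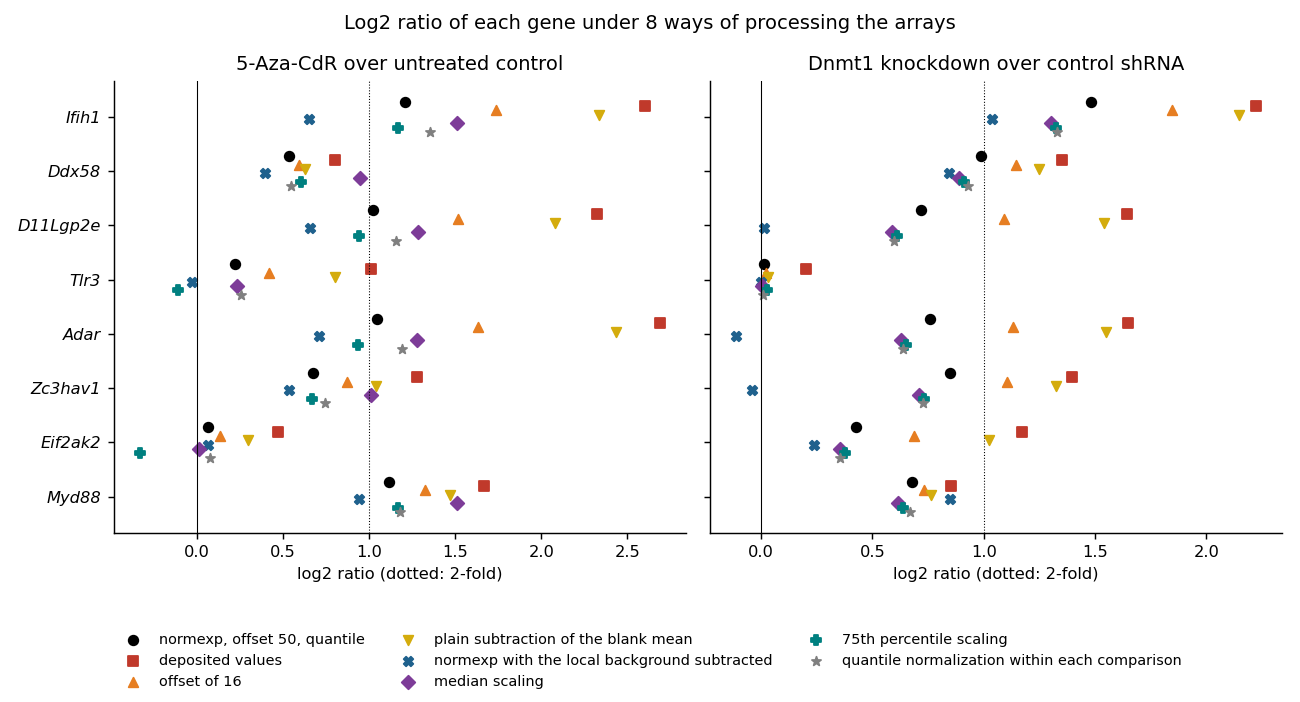
Log2 ratio (x axis) of each of the 8 genes (y axis) under 8 ways of processing the arrays, with 5-Aza-CdR on the left and Dnmt1 knockdown on the right, where the solid line is 0 and the dotted line 2-fold. The deposited values give Ifih1 2.60 and 2.22, and subtraction of the local background gives it 0.65 and 1.04, while with Dnmt1 knockdown it puts Adar at -0.11 and Zc3hav1 at -0.04.

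Across 8 ways of processing the arrays, Ifih1 stayed at least 2-fold higher with Dnmt1 knockdown, with log2 ratios of 1.04 to 2.22. With 5-Aza-CdR it ran from 0.65 to 2.60 and was under 2-fold only when the local background was subtracted. Ddx58 and Myd88 stayed above 0 under each of these in both comparisons. So did D11Lgp2e, but with Dnmt1 knockdown its value was 0.01 with the local background subtracted, against 0.72. With 5-Aza-CdR the sign of Eif2ak2 turned under 75th percentile scaling (-0.33), and that of Tlr3 turned there (-0.11) and with the local background subtracted (-0.03). Under 75th percentile scaling the median of all genes was -0.34. With Dnmt1 knockdown, Adar (-0.11) and Zc3hav1 (-0.04) turned below 0 when the local background was subtracted. On that array the local background of the Adar spot was 114 units for a spot signal of 111, and that of Zc3hav1 was 156 for a signal of 156, before any correction. In the control shRNA organoids the local background of Adar was 58.9 for a signal of 66.5, and that of Zc3hav1 was 84.3 for 89.2. That of D11Lgp2e was 95.2 for a signal of 105 with Dnmt1 knockdown, and 54.5 for 64.4 in the control shRNA organoids. Over all probes, a brighter spot had a brighter local background (correlation of logs 0.81 to 0.96 over 23473 probes an array, which are not independent). The local background was at or above the signal in 4.06% of probes with Dnmt1 knockdown and 1.19% in the control shRNA.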

How the data were processed

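Per the file headers, each array held the median signal and local background of every spot in Cy5, as intensity from 3 scanner gains joined by least squares. The authors deposited 1 intensity per probe, which, set against the spot signals, was the signal minus the blank mean, scaled to an array median of 25. The scanning and scaling software is not given in the sources used here. Spot signals of 23473 probes were corrected by normexp (offset 50, local background unused) and quantile normalized with limma 3.58.1 in R 4.3.3, and a gene's brightest probe was taken. Detection was the mean plus 2 SD of 2736 blank spots after trimming 5% at each end, and a value below it was set to the lowest detected value. It was passed by 81.1% to 92.9% of probes. The faintest intensity of the 8 genes was 4.14 times the 95th percentile of 1102 spots without probe on its array. With 1 array a culture, their number limits the precision and no test across genes was run. Symbols were those of the array design, with 16384 matched to RefSeq (GRCm38.p6). Steps were tested on simulated data. Members, lists, the motif, alternatives and rules for named genes were chosen with earlier results of these data known. The named pathway genes were the 2 of each list with the largest absolute log2 ratio averaged over both comparisons, and those called in both. Likewise, the 5 genes nearest to Ifih1 and to the mean of the 8 were named. Python 3.11.15 with pandas 2.3.3 was used. A second motif search is not reported here.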

Additional observations from a re-analysis of the deposited data

How the results depend on the processing

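Of the 8 genes, 4 were called higher after 5-Aza-CdR, and 6 by deposited intensity, 5 after plain blank subtraction, 5 under median scaling and 5 at 1.5-fold. The count was 2 under 75th percentile scaling, 0 under local background subtraction and 0 at 3-fold. For Dnmt1 knockdown the count was 1, and 6 by deposited intensity, 5 at offset 16, 6 after plain blank subtraction, 6 at 1.5-fold and 0 at 3-fold. For calls in both comparisons the count was 1, and 4 by deposited intensity, 3 at offset 16, 4 after plain blank subtraction, 5 at 1.5-fold, 0 at 3-fold and 0 under local background subtraction. The median of the 8 after 5-Aza-CdR was 0.85 (log2), and 1.47 by deposited intensity, 1.10 at offset 16, 1.26 after plain blank subtraction, 1.14 under median scaling and 0.59 under local background subtraction. For Dnmt1 knockdown it was 0.74, and 1.37 by deposited intensity, 1.10 at offset 16, 1.29 after plain blank subtraction and 0.13 under local background subtraction. Between the controls, 0.24 became 0.86 after plain blank subtraction, 0.50 by deposited intensity, 0.46 at offset 16, 0.37 under 75th percentile scaling and 0.05 under local background subtraction, and normalizing each comparison alone was not run there, since it leaves the 2 controls on separate scales. Of the pathway genes, 1 was called after 5-Aza-CdR, and 6 by deposited intensity, 2 after plain blank subtraction, 3 under local background subtraction, 3 under median scaling and 3 at 1.5-fold. For Dnmt1 knockdown 1 was called, and 3 by deposited intensity, 2 after plain blank subtraction, 2 at 1.5-fold and 0 under local background subtraction. A higher fold limit lowers a count, and an offset draws dim spots toward 0, by construction. For other settings the cause was not tested. Of all genes called after 5-Aza-CdR, 58.9% were higher, and 86.9% under median scaling and 74.7% by deposited intensity. For Dnmt1 knockdown the share was 70.1%, and 87.9% by deposited intensity, 56.5% at offset 16, 54.8% at 1.5-fold, 40.2% after plain blank subtraction and 36.4% under local background subtraction. Detection filters and the rule for several probes could not change the counts of the 8, since each had 1 probe and was detected on all 4 arrays. No paired analysis was possible because each culture had 1 array and the labels carry no replicate numbers.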
